A study of Mus musculus with 9 samples.

Results

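The genes described here encode the machinery that targets secretory proteins to the endoplasmic reticulum (ER), moves them through its membrane, removes their signal peptides and attaches and trims their N-linked glycans. The set was chosen by known function, but with earlier results of these data known. It holds 36 genes in 6 roles: 7 of the translocon, 4 of the translocon-associated protein (TRAP) complex and 5 of signal peptidase. The others are 6 of signal recognition, 10 of oligosaccharyltransferase and 4 of glycan trimming and checking. Of the 36 genes, 35 had a row in the count table and all 35 were among the 18548 genes tested, of 56941 gene rows. The oligosaccharyltransferase subunit Tusc3 is not analysed here.

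RNA from pancreatic islets of wild-type male C57BL/6J mice was sequenced in 9 libraries. From 15 weeks of age the mice had received 1 of 3 diets for 9 months: a low-fat diet with 10% fat (LFD, n = 3), a high-fat diet with 60% fat (HFD, n = 2) or a ketogenic diet with 89.9% fat (KD, n = 4). The labels do not say whether a library came from 1 mouse or from a pool, so p-values measure the spread between these libraries only. In islets from a whole preparation, fewer cells of a type and less RNA per cell cannot be told apart.

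In beta cells, whose main product preproinsulin carries a signal peptide, the ribosome is met by the signal recognition particle and brought to its receptor on the ER membrane, where the nascent chain enters the Sec61 channel. Signal peptidase cleaves the signal peptide while the chain is still being made, and TRAP sits beside the channel and is known to aid the entry of preproinsulin. Oligosaccharyltransferase moves a preassembled glycan onto asparagine residues of the chain. Glucosidases then remove its glucose residues, which lets lectin chaperones monitor folding. Exocrine acinar cells, which surround the islets and secrete digestive enzymes, depend on the same apparatus.

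The libraries held between 15513502 and 26588390 counts, and the members' own counts lay between 140 for Srp19 and 10583 for Tram1 in a library. Beta cell markers, the insulin genes among them, took 5.86% to 9.68% of counts on LFD, 11.9% to 13.1% on HFD and 1.77% to 13.1% on KD. All 30 acinar markers were detected in every library, and together they took 15.2% to 36.1% of counts on LFD, 11.4% to 19.1% on HFD and 20.6% to 61.2% on KD. The KD libraries with acinar shares of 61.2%, 45.1% and 56.9% (replicates 1, 2 and 3) stood above every LFD library, and KD replicate 4 did not. The log2 acinar share differed between KD and LFD by 0.82 (2-sided exact permutation test, p = 0.171). Not every marker followed this sum. Amy2b, Amy2a5 and Prss3 had lower fitted levels on KD than on LFD (log2 differences of -3.18, -2.40 and -1.41). The other acinar markers had higher ones. Levels below are CPM, counts scaled to a common library size. Lymphocyte markers summed to 79.4 to 1762 CPM on LFD, 86.6 to 105 on HFD and 8.19 to 32.5 on KD, where up to 9 of 12 were at 0 in a library. Plasma cell markers, from cells rich in secretory machinery, summed to 17.6 to 144 CPM on LFD, 22.4 to 30.6 on HFD and 11.5 to 21.9 on KD. Macrophage markers summed to 73.6 to 131 CPM on LFD, 91.0 to 121 on HFD and 36.9 to 72.5 on KD. Duct markers summed to 499.9 to 645 on LFD, 327 to 360 on HFD and 355 to 535 on KD. Fibroblast and stellate markers summed to 269 to 583 on LFD, 298 to 311 on HFD and 134 to 350 on KD.

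On KD, most fitted levels were above those on LFD in each of the 6 roles, and few of the differences passed the test. Of the 35 members, 34 had a higher fitted level on KD, against 48.1% of all genes tested, and the median log2 difference was 0.33 (range -0.28 to 0.72), against -0.02 over all genes. Past a Benjamini-Hochberg adjusted p of 0.05 in edgeR's quasi-likelihood test, 6 members rose and 0 fell, and 29 did not pass. Over all genes, 4.12% were called in either direction, 0.981% higher and 3.14% lower. The 6 were Ssr1, Sec61b, Rpn2, Srp68, Mogs and Tram1, with at least 1 in every role except signal peptidase, and their fitted folds lay between 1.51 and 1.64. At an unadjusted p under 0.05, 17 members were higher and 0 lower, against 10.8% of all genes higher. In 20 of 35 members (57.1%) every KD library was above every LFD library, which held for 9.69% of all genes.

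That direction depended on how the libraries were scaled. CPM values here use edgeR's trimmed mean (TMM) library sizes. On plain totals, 9 of 35 members had a higher fitted level on KD, with a median of -0.23 against -0.59 for all genes. With those totals 0 members passed the test, against 8.91% of all genes. The members thus lay 0.36 above the median gene on that scale. As a plain share of counts, the members took 0.462%, 0.563% and 0.494% in LFD replicates 1 to 3, 0.610% and 0.739% in the HFD libraries, and 0.305%, 0.456%, 0.359% and 0.705% in KD replicates 1 to 4. With TMM scaling, the summed level was 4294 ± 313 CPM on LFD (SD, n = 3), 4952 ± 41.6 on HFD (n = 2) and 5720 ± 267 on KD (n = 4).

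**Figure D1:**
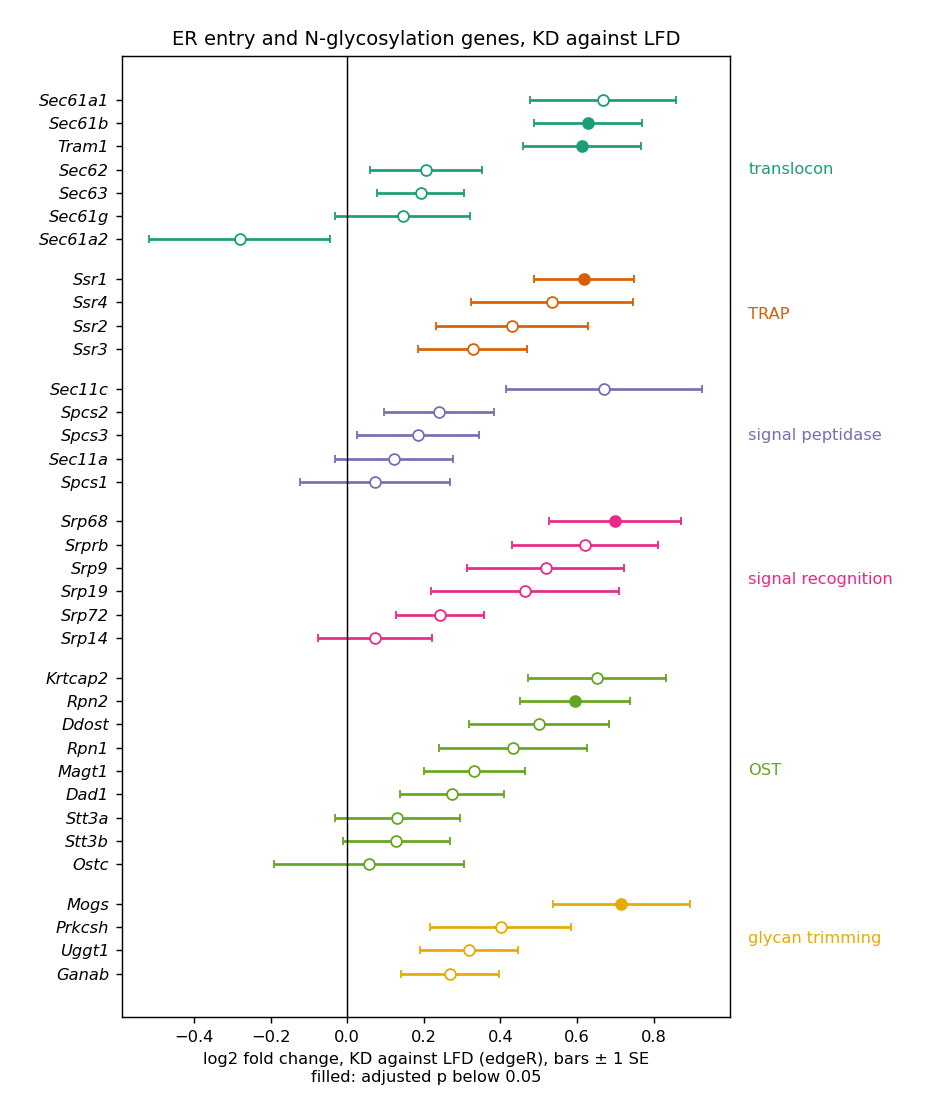
Log2 difference between KD (n = 4) and LFD (n = 3) for each of the 35 measured genes, grouped by role, with bars of 1 standard error from edgeR; filled points passed an adjusted p of 0.05. Of the 35 points 34 lie to the right of 0, and the filled ones lie between 0.60 and 0.72.

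The promoters of called members were read to show what these genes have upstream. RefSeq windows on GRCm38.p6 were held for 27 of the 36 members, 4 of the 6 called ones among them (Ssr1, Sec61b, Rpn2 and Mogs). Each is printed 5′ to 3′ on the gene's strand, up to the first annotated exon base, and capitals mark CCAAT and CCACG on either strand, the letters that the ER stress response element (ERSE) joins at a fixed spacing.
Ssr1, chr13:37994218-37994458, minus strand: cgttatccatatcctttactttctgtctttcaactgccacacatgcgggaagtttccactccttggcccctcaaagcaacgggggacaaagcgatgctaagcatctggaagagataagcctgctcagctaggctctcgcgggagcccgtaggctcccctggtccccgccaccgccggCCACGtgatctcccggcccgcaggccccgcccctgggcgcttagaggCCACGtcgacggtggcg
Sec61b, chr4:47474411-47474657, plus strand: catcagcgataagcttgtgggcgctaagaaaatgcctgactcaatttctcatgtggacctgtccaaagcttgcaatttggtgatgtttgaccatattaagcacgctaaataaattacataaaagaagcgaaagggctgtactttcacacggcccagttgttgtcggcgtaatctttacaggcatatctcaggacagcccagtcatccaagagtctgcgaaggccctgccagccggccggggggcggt
Rpn2, chr2:157278848-157279016, plus strand: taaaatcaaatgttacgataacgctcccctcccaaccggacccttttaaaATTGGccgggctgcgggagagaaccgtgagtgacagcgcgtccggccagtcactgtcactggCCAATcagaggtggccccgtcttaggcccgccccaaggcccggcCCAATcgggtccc
Mogs, chr6:83115256-83115495, plus strand: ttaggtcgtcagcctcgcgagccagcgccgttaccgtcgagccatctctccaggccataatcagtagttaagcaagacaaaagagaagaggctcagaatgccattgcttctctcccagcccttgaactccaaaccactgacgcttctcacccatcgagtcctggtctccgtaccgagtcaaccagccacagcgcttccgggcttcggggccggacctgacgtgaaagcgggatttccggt
The Ssr1 stretch held 2 copies of CCACG and none of CCAAT, the Rpn2 stretch held 3 copies of CCAAT, 1 of them read on the other strand as ATTGG, and the Sec61b and Mogs stretches held neither. Over the 250 bases upstream in 29 member windows, CCACG was in 13 (44.8%), against 28.3% of 32851 windows of the same length. CCAAT was in 12 (41.4%), against 33.8%. Both motifs were in 6 windows (20.7%, against 9.26% of all), those of Rpn1, Sec63, Spcs2, Ssr3, Stt3a and Stt3b. Searched on both strands, the full ERSE (CCAAT and CCACG with 9 bases between them), ERSE-II (ATTGG and CCACG with 1 base between them) and TGACGTGG were in 0 of the 29 windows, against 0.113%, 0.0304% and 0.563% of all windows. ERSE, ERSE-II and, read on the other strand, TGACGTGG hold CCACG within them, so the motifs overlap.

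The translocon forms the channel itself, and 2 of its 7 members rose on KD. Sec61b (ENSMUSG00000053317), a small tail-anchored subunit of the channel, stood at 48.1, 53.5 and 38.7 CPM in LFD replicates 1 to 3, at 59.6 and 68.6 in the HFD libraries and at 76.2, 64.0, 70.4 and 78.6 in KD replicates 1 to 4. Every KD library was above every LFD library, and both HFD libraries were above all LFD ones too. The log2 difference between KD and LFD was 0.63 ± 0.14 (SE, edgeR adjusted p = 0.0322).

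Tram1 (ENSMUSG00000025935) encodes a membrane protein that contacts nascent chains beside the channel. Its level was 354, 321 and 332 CPM on LFD, 392 and 362 on HFD and 554, 471, 585 and 443 on KD. The diets did not overlap, with LFD lowest and KD highest. KD exceeded LFD by 0.61 ± 0.15 on the log2 scale (edgeR adjusted p = 0.0485), and KD against HFD gave 0.45 with an adjusted p of 0.170.

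Sec61a1 (ENSMUSG00000030082), the channel-forming subunit, stood at 307, 341 and 230 CPM on LFD, 241 and 312 on HFD and 531, 416, 520 and 393 on KD. All KD libraries were above all others, while LFD and HFD overlapped. Its log2 difference of 0.67 ± 0.19 had an edgeR adjusted p of 0.0713 and did not pass. Sec61a2 (ENSMUSG00000025816), the paralog of the same subunit, was the only member with a negative fitted difference (-0.28 ± 0.24, edgeR adjusted p = 0.513). It stood at 14.1, 10.1 and 17.2 CPM on LFD, 14.8 and 12.1 on HFD and 13.2, 9.09, 14.7 and 8.74 on KD, with all 3 diets overlapping.

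Within each library, Sec61a1 counts exceeded those of Sec61a2 by a factor of 21.8, 33.6 and 13.4 on LFD, 16.4 and 25.7 on HFD and 40.1, 45.8, 35.4 and 44.9 on KD. This ratio is free of the library scaling. Every KD ratio was above every LFD and HFD ratio, and the LFD ratios were the more scattered. On the log2 scale the ratio was 4.42 ± 0.66 on LFD (SD, n = 3) and 5.37 ± 0.17 on KD (n = 4). The difference of 0.95 gave a 2-sided exact permutation p of 0.0286, the smallest that 35 splits allow, and 0.0857 after adjustment over the 3 ratios examined.

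Sec61g (ENSMUSG00000078974), the third channel subunit, stood at 36.1, 33.3 and 25.8 CPM on LFD, 53.1 and 41.3 on HFD and 27.1, 34.2, 36.6 and 42.2 on KD. KD overlapped both other diets, and both HFD libraries were above all LFD ones. Its KD difference was 0.14 ± 0.18 (edgeR adjusted p = 0.662), the highest p in this role. Sec62 and Sec63, which serve chains that enter after synthesis, had KD differences of 0.21 and 0.19 with edgeR adjusted p of 0.428 and 0.345.

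**Figure D2:**
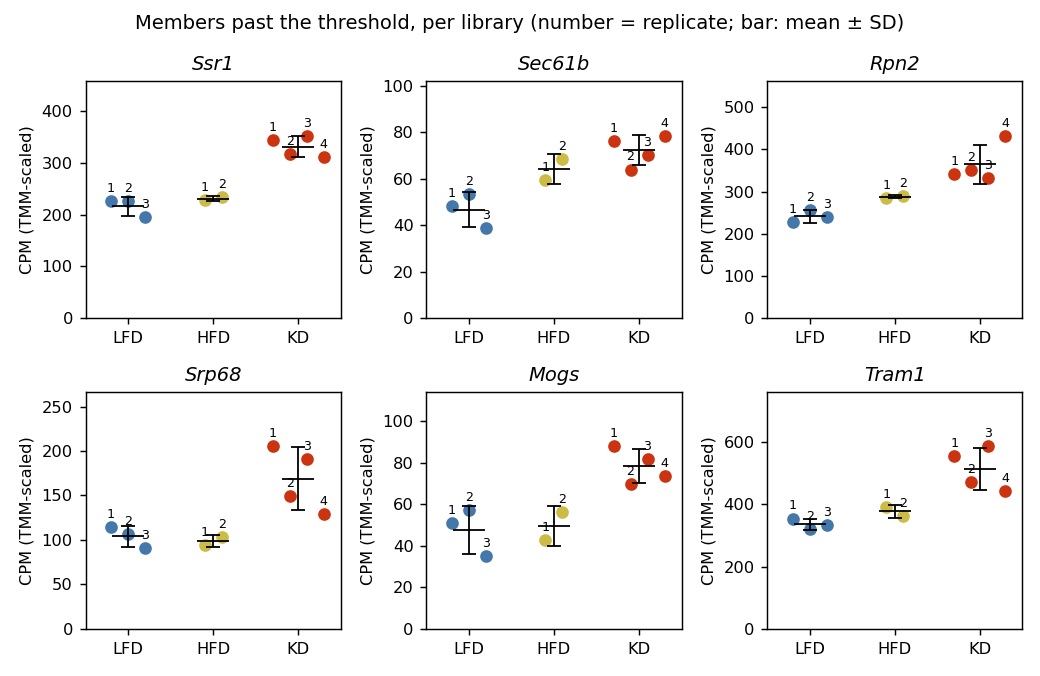
TMM-scaled CPM (axis from 0) of the 6 called members in each library, by diet, with replicate numbers and bars for the mean ± SD. In each panel the 4 KD points lie above the 3 LFD points, and KD replicate 4 is the highest KD point for Sec61b and Rpn2.

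All 4 TRAP subunits had KD libraries wholly above the LFD libraries, against 9.69% of all genes. For Ssr2 and Ssr4 the gap was narrow, with Ssr4 at 145 CPM in KD replicate 2 and 144 in LFD replicate 1. Of the 4, 1 passed the test, against 0.981% of all genes called higher. Ssr1 (ENSMUSG00000021427), the alpha subunit, had the lowest adjusted p of the whole set. It stood at 226, 227 and 195 CPM on LFD, 228 and 234 on HFD and 345, 317, 352 and 312 on KD. KD stood apart from both other diets, whose levels lay close together. The KD difference from LFD was 0.62 ± 0.13 (edgeR adjusted p = 0.0277), and that of HFD from LFD was 0.09.

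Ssr2 (ENSMUSG00000041355), the beta subunit, had the highest p of the 4. Its level was 114, 125 and 82.7 CPM on LFD, 99.8 and 153 on HFD and 141, 128, 130 and 179 on KD. HFD spanned much of the range of both other diets. The KD difference was 0.43 ± 0.20 (edgeR adjusted p = 0.222), and Ssr3 and Ssr4 gave 0.33 and 0.53 with adjusted p of 0.205 and 0.167.

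Signal peptidase was the role with no called member, although all 5 fitted differences were above 0 (median 0.18, range 0.07 to 0.67). Sec11c (ENSMUSG00000024516), 1 of the alternative catalytic subunits, had the lowest p. It stood at 73.2, 69.5 and 46.3 CPM on LFD, 94.7 and 52.3 on HFD and 121, 78.3, 123 and 78.8 on KD. All KD libraries were above all LFD libraries, KD replicates 2 and 4 only narrowly, and HFD overlapped both. The difference was 0.67 ± 0.26 (edgeR adjusted p = 0.156).

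Spcs1 (ENSMUSG00000021917), an accessory subunit, had the highest p in this role. Its level was 50.6, 44.8 and 38.8 CPM on LFD, 73.5 and 47.1 on HFD and 36.9, 44.6, 45.5 and 60.9 on KD. The 3 diets overlapped, and KD replicate 1 was the lowest of all libraries. The KD difference was 0.07 ± 0.20 (edgeR adjusted p = 0.862). The ratio of the catalytic subunits Sec11a and Sec11c was 0.447, 0.527 and 0.583 on LFD and 0.315, 0.418, 0.233 and 0.511 on KD, a log2 difference of -0.55 (exact permutation p = 0.143, adjusted 0.214).

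In signal recognition, 1 of 6 members rose and the median difference was 0.49, the largest of the 6 roles. Srp68 (ENSMUSG00000020780), which binds the particle's RNA together with Srp72, stood at 114, 106 and 91.3 CPM on LFD, 93.9 and 104 on HFD and 205, 150, 191 and 129 on KD. KD lay above both other diets, which overlapped. The difference was 0.70 ± 0.17 (edgeR adjusted p = 0.0468), and Srp72 gave 0.24 with an adjusted p of 0.236.

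Srp14 (ENSMUSG00000009549), which with Srp9 forms the part of the particle that slows translation, stood at 22.3, 26.8 and 23.9 CPM on LFD, 33.9 and 28.0 on HFD and 23.3, 24.5, 23.2 and 31.3 on KD. KD overlapped LFD except for KD replicate 4, which was above all LFD libraries, as were both HFD libraries. Its KD difference was 0.07 ± 0.15 (edgeR adjusted p = 0.814), beside 0.52 and an adjusted p of 0.164 for Srp9. The receptor's membrane anchor Srprb gave 0.62 with an adjusted p of 0.0907.

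Oligosaccharyltransferase had 9 tested members, all with KD differences above 0 (median 0.33, range 0.06 to 0.65), and 1 rose. Rpn2 (ENSMUSG00000027642), ribophorin II, stood at 228, 257 and 239 CPM on LFD, 285 and 290 on HFD and 342, 351, 333 and 432 on KD. The 3 diets did not overlap and took the order LFD, HFD, KD. KD exceeded LFD by 0.60 ± 0.14 (edgeR adjusted p = 0.0428), HFD exceeded LFD by 0.25 and KD exceeded HFD by 0.34 (adjusted p = 0.235), so only the outer pair passed.

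Ostc (ENSMUSG00000041084), a subunit of the translocon-bound form of the enzyme, was at the other end. It stood at 89.1, 95.0 and 73.3 CPM on LFD, 141 and 117 on HFD and 58.8, 85.1, 74.1 and 138 on KD. KD replicate 1 was the lowest library and KD replicate 4 was close to the highest, so KD spanned the LFD range and overlapped HFD. The KD difference was 0.06 ± 0.25 (edgeR adjusted p = 0.921).

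Of the remaining subunits, Krtcap2, also a subunit of the translocon-bound form, gave 0.65 (edgeR adjusted p = 0.0651), Ddost 0.50 (0.136), ribophorin I (Rpn1) 0.43 (0.211), the oxidoreductase Magt1 0.33 (0.168) and Dad1 0.27 (0.255). The catalytic subunits were among the smallest, at 0.13 for both Stt3a, which acts on entering chains, and Stt3b, which acts on completed ones (adjusted p = 0.669 and 0.619). Their ratio was 1.40, 1.40 and 1.59 on LFD, 1.84 and 2.04 on HFD and 1.11, 1.55, 1.38 and 1.82 on KD. The log2 ratio on KD differed from that on LFD by -0.02 (exact permutation p = 0.857, adjusted 0.857), with the KD values on both sides of the LFD ones.

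Among the enzymes that trim and check the new glycan, 1 of 4 rose. Mogs (ENSMUSG00000030036), glucosidase I, which removes the first glucose, stood at 50.8, 57.1 and 35 CPM on LFD, 42.8 and 56.5 on HFD and 87.8, 69.8, 82.0 and 73.6 on KD. LFD and HFD overlapped, and KD was above both. Its difference of 0.72 ± 0.18 (edgeR adjusted p = 0.0477) was the largest of the 35 members.

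Ganab (ENSMUSG00000071650), the catalytic subunit of glucosidase II, which acts next, had the highest p of the 4. It stood at 169, 183 and 173 CPM on LFD, 171 and 199 on HFD and 198, 204, 207 and 236 on KD. KD lay above LFD without overlap but within reach of HFD, and the difference was 0.27 ± 0.13 (edgeR adjusted p = 0.235). Prkcsh, the regulatory subunit of glucosidase II, gave 0.40 (0.221), and Uggt1, which adds glucose back to misfolded glycoproteins, gave 0.32 (0.170).

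**Figure D3:**
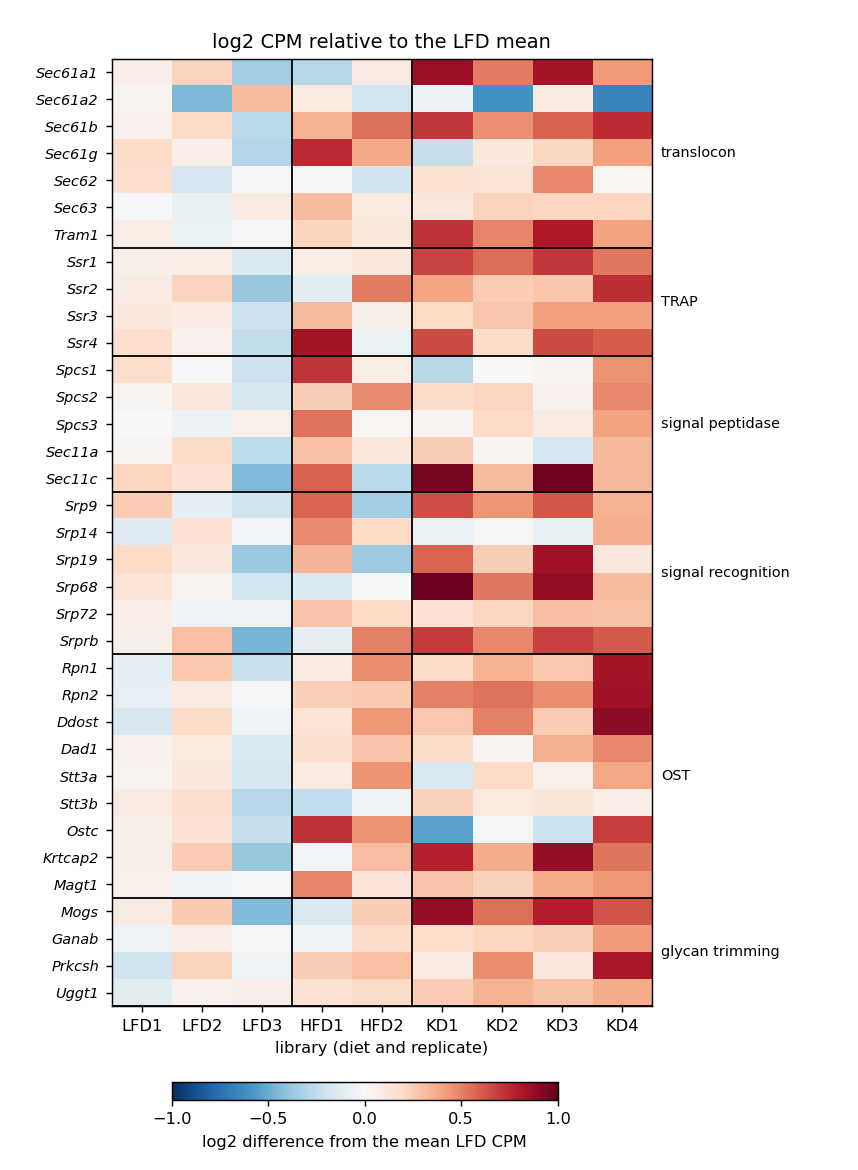
Log2 difference of each member's CPM from its LFD mean in each of the 9 libraries (red higher, blue lower), with members grouped by role and libraries by diet. LFD replicate 3 holds the lowest value for 20 of the 35 members and KD replicate 4 the highest for 12.

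Within KD, the highest library differed between members and, in part, between roles, a pattern singled out after the values were seen and given with no test. KD replicate 4, the KD library with the lowest acinar share, held the highest KD level for 19 of 35 members (54.3%, against 34.5% of all genes). These were 7 of the 9 oligosaccharyltransferase members, 4 of 5 in signal peptidase, 3 of 4 in trimming, 2 of 4 in TRAP, 2 of 7 in the translocon and 1 of 6 in signal recognition. KD replicates 1 and 3, with the largest acinar shares, were both above the other 2 for 14 members (40.0%, against 25.4% of all genes). Among them were 4 of 7 in the translocon, 4 of 6 in signal recognition and 2 of 4 in TRAP. The rest were 2 of 9 in oligosaccharyltransferase, 1 of 5 in signal peptidase and 1 of 4 in trimming. Sec61a1, Tram1, Ssr1, Srp68, Srprb and Mogs were in that second set, and Sec61b and Rpn2 in the former.

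The members were also read in KD replicate 4 by itself, a single library whose acinar share of 20.6% lay within the LFD range. Its beta and alpha cell markers were not within their LFD ranges. Beta cell markers took 13.1% of counts, against 5.86% to 9.68% on LFD, and alpha cell markers 1.99%, against 0.946% to 1.15%. Delta and pancreatic polypeptide cell markers, at 0.211%, lay within theirs (0.135% to 0.353%). There 31 of 35 members were above every LFD library, against 29.5% of all genes, and the median log2 distance from the LFD mean was 0.42 against -0.02. Sec61a2, Sec62, Srp19 and Stt3b were the other 4. An acinar score was also used as a covariate in the fit. It was the mean log2 level of all 30 acinar markers, with Amy2b, Amy2a5 and Prss3 among them. With it 9 members rose, which were the 6 named above with Ddost, Prkcsh and Rpn1, and the median difference was 0.32. Calls over all genes also grew in that fit, from 4.12% to 8.38%. Without KD replicates 1 and 3, 34 of 35 fitted differences stayed above 0 (median 0.35) and 0 passed, against 0.351% of all genes. With a lymphocyte score as a covariate, 0 members and 0 of all genes passed, and the median was 0.68. Summed lymphocyte markers were lower in every KD library than in every LFD library, so between them score and diet cannot be told apart. What part acinar, beta, alpha, lymphocyte, plasma cell, macrophage, duct, fibroblast and stellate cell content had in the differences was not tested.

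**Figure D4:**
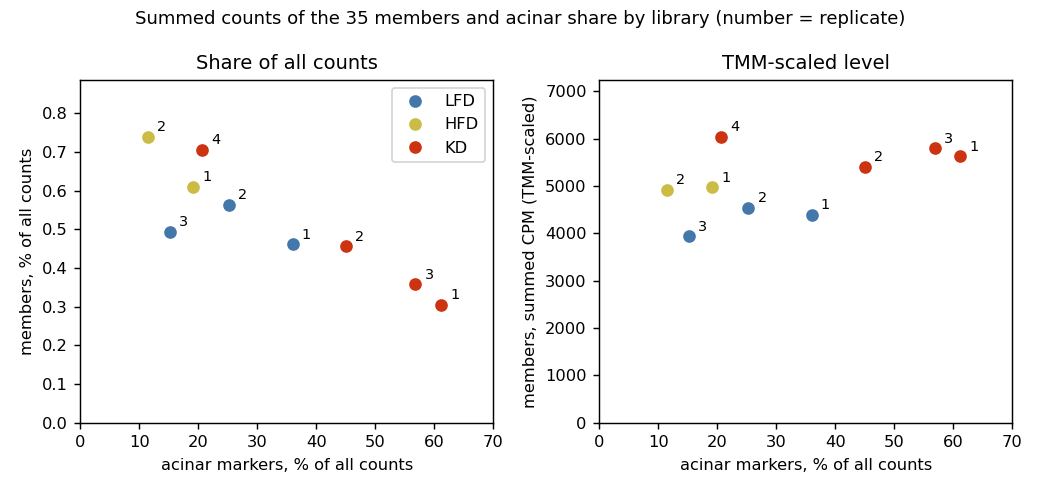
The 35 members as a percent of all counts (left) and as summed TMM-scaled CPM (right) against the acinar percent of counts in each of the 9 libraries, coloured by diet. On the right, LFD replicates 1 to 3 stood at 4392, 4546 and 3944 CPM and HFD replicates 1 and 2 at 4982 and 4923. KD replicates 1 to 4 stood at 5633, 5407, 5803 and 6038 CPM. On the left KD replicates 1 to 3 are the lowest 3 libraries.

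The 6 calls depended on single libraries. Leaving out any 1 of LFD replicates 1, 2 or 3 or KD replicates 1, 2 or 3 left 0 members past the threshold, leaving out HFD replicate 1 or 2 left Sec61b and Ssr1, and leaving out KD replicate 4 left 7. Over all genes, the share called was 5.08% without LFD replicate 3 and between 0.822% and 2.06% without any of the other 5 libraries whose loss left 0 members. It was 2.71% and 2.73% without HFD replicates 1 and 2 and 7.40% without KD replicate 4. Over these 9 omissions the median difference stayed between 0.30 and 0.37, and between 31 and 34 of the 35 fitted differences were above 0.

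Around this core, a list of 76 further genes of targeting, insertion and glycosylation, also chosen with earlier results known, was read the same way. On KD, 68 of the 76 had a fitted difference above 0 (median 0.32, range -0.42 to 1.19), 4 rose (5.26%) and 0 fell, beside 4.12% called in either direction and 0.981% called higher over all genes. In 31 (40.8%) the KD libraries were wholly above the LFD ones, against 9.69% of all genes. The called genes were 1 of 13 in targeting, 1 of 9 partners of the translocon, 1 of 10 in the ER membrane protein complex and 1 of 14 further trimming enzymes. Synthesis of the lipid-linked glycan that oligosaccharyltransferase uses had 0 of 28 called by edgeR, with a median of 0.30. At an unadjusted edgeR p under 0.05, 10 of these 28 were higher and 0 lower, against 10.8% of all genes higher.

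Srpra (ENSMUSG00000032042), the alpha subunit of the signal recognition particle receptor and partner of Srprb, stood at 249, 274 and 212 CPM on LFD, 242 and 268 on HFD and 404, 369, 427 and 396 on KD. KD was well above both other diets, which overlapped, and the difference from LFD was 0.70 ± 0.14 (edgeR adjusted p = 0.0247). Wdr83os (ENSMUSG00000059355), a subunit of a chaperone complex for membrane proteins at the translocon, stood at 11.6, 9.50 and 9.71 CPM on LFD, 11.8 in both HFD libraries and 17.1, 13.5, 19.4 and 17.6 on KD. All KD libraries were highest, and the difference from LFD was 0.72 ± 0.17 (SE, edgeR adjusted p = 0.0360). Emc10 (ENSMUSG00000008140), of the ER membrane protein complex, which inserts membrane proteins, averaged 44.6 ± 3.84 CPM over the LFD libraries and 65.0 ± 6.43 over the KD ones, and differed by 0.54 ± 0.13 (SE, edgeR adjusted p = 0.0373).

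Edem2 (ENSMUSG00000038312), which begins the mannose trimming that sends misfolded glycoproteins to degradation, had the largest difference of the called genes on either list. It stood at 129, 114 and 81.0 CPM on LFD, 85.2 and 75.5 on HFD and 323, 197, 270 and 140 on KD. KD was above both other diets but spread widely, with the 2 libraries of largest acinar share highest. The difference from LFD was 1.11 ± 0.27 (edgeR adjusted p = 0.0443).

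HFD was compared with LFD in the same fit. No member passed, and 0 genes in all did (0%), with 9.99% of all genes and 2 members (Sec61b and Sec61g) at an unadjusted p under 0.05 in edgeR. Both members were higher on HFD, as were 3.55% of all genes at that p. DESeq2 and limma also called 0 members, against 1.45% and 0.0539% of all genes. Fitted differences were above 0 for 30 of 35 members, against 49.8% of all genes, with a median of 0.22 (range -0.14 to 0.59). On plain totals all 35 were above 0, with a median of 0.44 against 0.20 for all genes. In 14 members (40.0%) both HFD libraries were above all LFD libraries, against 13.4% of all genes.

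Sec61b had a difference between HFD and LFD of 0.46 ± 0.16 (edgeR adjusted p = 0.422) and Sec61g one of 0.57 ± 0.21 (edgeR adjusted p = 0.422). Ostc, at 0.59 ± 0.29 (edgeR adjusted p = 0.528), was the largest. HFD replicate 1 held the highest level of all 9 libraries for 8 members (22.9%, against 15.9% of all genes): Magt1, Ostc, Sec61g, Sec63, Spcs1, Spcs3, Srp14 and Ssr4. With 2 HFD libraries, this comparison had the least replication.

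KD and HFD were compared to set the 2 fat-rich diets against each other. Again 0 members and 0 genes in all (0%) passed in edgeR, while 6 members were higher and 1, Sec61g, was lower at an unadjusted p under 0.05. Over all genes 22.7% were under that p. DESeq2 called 5 of 35 members, against 9.92% of all genes, and limma called 0. Fitted differences were above 0 for 24 of 35 members, against 46.6% of all genes, with a median of 0.15 (range -0.53 to 0.77). This direction too depended on the scaling. On plain totals 0 of 35 members were above 0 (median -0.58, against -0.81 for all genes), and on totals outside acinar markers 19 were (median 0.0089, against -0.17). Without KD replicate 4 the median was 0.073, with 20 of 35 above 0. KD libraries were wholly above HFD libraries in 10 members (28.6%), against 15.7% of all genes, and wholly below them in 0, against 18.2%.

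By role, the median difference between KD and HFD was 0.36 in signal recognition, 0.17 in the translocon, 0.17 in trimming, 0.16 in TRAP, 0.14 in oligosaccharyltransferase and -0.12 in signal peptidase. The largest differences were those of Srp68 (0.77 ± 0.20, edgeR adjusted p = 0.124), Sec61a1 (0.75 ± 0.22, adjusted p = 0.124) and Mogs (0.66 ± 0.20, adjusted p = 0.127). At the other end, Ostc gave -0.53 ± 0.28 (adjusted p = 0.272) and Sec61g -0.43 ± 0.19 (adjusted p = 0.218). The 3 diet comparisons share libraries, so these values are not independent of those given above for KD and LFD.

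**Figure D5:**
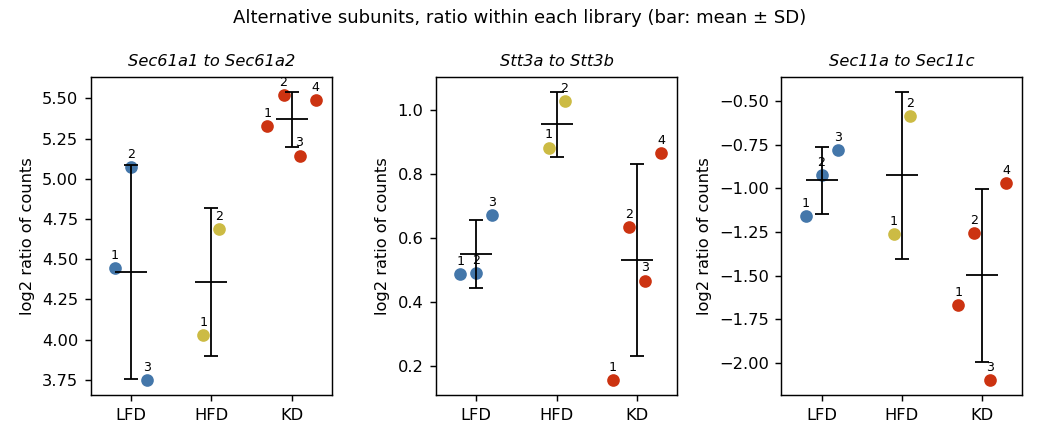
Log2 ratio of counts within each library for 3 pairs of alternative subunits, by diet, with bars for the mean ± SD. The 4 KD values of Sec61a1 to Sec61a2 (ratios of 35.4 to 45.8) lie above all LFD and HFD ratios, while those of Stt3a to Stt3b and of Sec11a to Sec11c overlap between KD and LFD.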

How the data were processed

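RNA-seq of islets was deposited by the authors as raw read counts per gene, 1 column per library. Per the submitters' processing notes, cutadapt 1.16, STAR 2.7.9a, featureCounts 1.6.3 and DESeq2 1.40.2 were used with the builds GRCm39 and mm39. The annotation and strand setting are not given in the sources used here. Reads of overlapping or near-identical genes could be split differently. Library totals ranged from 15513502 to 26588390 counts.

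Counts were tested in R 4.3.3 with edgeR 4.0.16 (TMM scaling, filterByExpr by diet, robust quasi-likelihood fit of all 9 libraries with diet as the only term, 2-sided), with Benjamini-Hochberg adjustment over 18548 genes and a threshold of 0.05. Each standard error was obtained by dividing the size of the log2 fold change by √F. The scripts were tested on simulated data. Alternatives used DESeq2 1.42.0 and limma 3.58.1. Symbols came from a supplied gene table, exon lengths from GENCODE M21 and promoters from RefSeq (GRCm38.p6). Subunit ratios were of plain counts, with nothing added, and were compared with exact permutation tests. Adding 0.5 to each count was an alternative.

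Replicate numbers were those of the labels. Members and lists were chosen with earlier results of these data known. Genes named in full were all members past the threshold and, in each role, those with the lowest and the highest p for KD against LFD, with the genes of the further list past the threshold, and Sec61a1 and Sec61a2 were added as the pair of a ratio. No 2 libraries of 1 diet agreed within sampling noise.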

Additional observations from a re-analysis of the deposited data

Results flagged for a closer look

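Within the KD group of 4, 2 members had 1 library far from the other 3, with the gap to the nearest library taking up most of the group's range. Sec63 was lowest in KD replicate 1, at 98.9 CPM against 106 to 107 in the others (gap over range 0.911). The distance is small beside the level. Ssr4 was lowest in KD replicate 2, at 145 CPM against 195 to 201 in the others (gap over range 0.903). That was only narrowly above the highest LFD library, at 144. In all, 38 groups were examined in this way, and chance alone flags about 1 in 20.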

How the results depend on the processing

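Members called on KD against LFD numbered 6 as reported, 3 with DESeq2 size factors, 3 with TMM factors from genes outside acinar and hormone genes, 9 with DESeq2, 8 with limma-voom, 9 with no filter, 1 with at least 5 CPM in at least 3 libraries, 1 with only the diets compared, 9 with the acinar covariate and 0 to 7 without 1 library. The share of all genes called was 4.12% as reported and, in that order, 3.91%, 3.90%, 9.57%, 10.1%, 3.42%, 3.21%, 3.12%, 8.38% and 0.822% to 7.40%. Further genes called numbered 4 as reported, 11 with DESeq2, 11 with limma-voom, 8 with no filter, 1 with the 5 CPM filter, 1 with only the diets compared, 7 with the acinar covariate and 0 to 9 without 1 library. Alternatives added after seeing the data called 0 members and 0 further genes. They were plain totals, totals outside acinar markers, the lymphocyte covariate and omission of KD replicates 1 and 3. In that order they called 8.91%, 4.53%, 0% and 0.351% of all genes. On HFD against LFD, 0 members were called in every setting with both HFD libraries, beside 0% to 2.13% of all genes. On KD against HFD, 5 were called with DESeq2, 2 with no filter and 0 to 4 without 1 library (9.92%, 1.02% and 0% to 9.84% of all genes).

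Same-numbered LFD and KD libraries deviated together with r of 0.222, -0.0164 and -0.00265, and 2 of 6 libraries correlated best with their own number, so the numbers were not taken to pair the samples. With the replicate block, 9 members and 13 further genes were called on KD against LFD, and 4 members on KD against HFD, beside 10.8% and 12.5% of all genes.

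Of 770 fitted member differences between KD and LFD over 22 alternatives, 727 kept their direction and 43 did not, 25 of these on plain totals. The alternatives refit the same libraries and are not independent, so this count does not measure how reliable a direction is. On plain totals the sign turned for Dad1 (-0.28), Ddost (-0.00192), Ganab (-0.28), Magt1 (-0.23), Ostc (-0.38), Prkcsh (-0.10), Rpn1 (-0.069), Sec11a (-0.42), Sec61g (-0.37), Sec62 (-0.40), Sec63 (-0.38), Spcs1 (-0.42), Spcs2 (-0.29), Spcs3 (-0.35), Srp14 (-0.46), Srp19 (-0.17), Srp72 (-0.32), Srp9 (-0.079), Ssr2 (-0.091), Ssr3 (-0.23), Ssr4 (-0.044), Stt3a (-0.38), Stt3b (-0.46), Tram1 (-0.00461) and Uggt1 (-0.25), and for the further gene Emc10 (-0.042), where the median gene moved to -0.59. On totals outside acinar markers it turned for Ostc (-0.072), Sec11a (-0.014), Spcs1 (-0.057), Srp14 (-0.054) and Stt3b (-0.010), with the median gene at -0.14. Elsewhere it turned for Ostc with the 5 CPM filter (-0.00799), limma-voom (-0.11) and the block (-0.24), for Spcs1 with limma-voom (-0.066) and the block (-0.065), for Srp14 with the block (-0.042), and for Sec62 (-0.13) and Sec63 (-0.031) with the lymphocyte covariate. Without 1 library Ostc ranged from -0.24 to 0.21, Spcs1 from -0.079 to 0.17 and Srp14 from -0.042 to 0.15.

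Without 1 library, the log2 ratio difference between KD and LFD ranged from 0.61 to 1.27 for Sec61a1 to Sec61a2 (p from 0.0667 to 0.1, the smallest those splits allow), from -0.13 to 0.11 for Stt3a to Stt3b and from -0.72 to -0.34 for Sec11a to Sec11c, and that of the acinar share from 0.49 to 1.17. Except where a count of genes or libraries was itself reduced, the cause was not tested.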

Other observations

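Levels per exon length, which allow genes to be compared with each other, spanned a wide range within single complexes. On LFD, Tram1 was highest at 106 CPM per kb, followed by Ddost at 85.2, Spcs3 at 65.8, Ssr2 at 57.6, Ssr3 at 55.0 and Rpn2 at 54.5. In the Sec61 channel, Sec61a1 stood at 43.5 and Sec61b at 36.8 CPM per kb, while Sec61g was listed at 12.9 and Sec61a2 at 3.02. Srp19 (2.33) and Srp9 (5.67), proteins of the signal recognition particle, were among the lowest. Exon length was taken over all transcripts of a gene, so a gene with long rarely used exons is listed too low on this scale.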
